A study of Homo sapiens with 33 samples.

Results

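The genes described here encode enzymes whose activity on histone H3 opposes that of Polycomb repressive complex PRC2. They are 8 genes, chosen by name: KDM6A and KDM6B, EP300 and CREBBP, and KMT2A, KMT2B, KMT2C and KMT2D. All 8 were among the 35805 genes of the RNA sequencing (RNA-seq) table, and 64 of the 153958 start site windows of the chromatin immunoprecipitation sequencing (ChIP-seq) table carried their names. The cells were H9 human embryonic stem cells (ESCs), an established line, cultured on mouse feeder cells. The genotypes compared were 4. EZH2+/+ ESCs were the parental cells and EZH2-/+ ESCs carried a CRISPR/Cas9 disruption of 1 EZH2 allele. EZH2-/- ESCs were lines isolated after targeting an EZH2-/+ line again while a doxycycline (DOX) inducible piggyBac EZH2 transgene was switched on, and they were then kept without DOX. EZH2-/- +EZH2 ESCs carried the same EZH2 disruption and expressed the DOX-induced transgene. The labels name no clone and no number of lines within a genotype. RNA came from cells sorted for the surface antigen SSEA4, with 3 libraries in each of the 4 genotypes, numbered 1 to 3. ChIP-seq covered H3K4me3, H3K27ac, H3K4me1, H3K27me3 and input chromatin in all 4 genotypes and EZH2 in EZH2+/+ ESCs.

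PRC2, through its catalytic subunit EZH2, methylates histone H3 at lysine 27, and H3K27me3 is the mark of Polycomb repression at developmental genes. KDM6A (UTX) and KDM6B (JMJD3) remove methyl groups from H3K27. EP300 (p300) and CREBBP (CBP) acetylate the same lysine, which cannot be acetylated and methylated at once. KMT2A and KMT2B (MLL proteins of the trithorax type) methylate H3K4 at promoters, while KMT2C and KMT2D methylate H3K4 mainly at enhancers, in a complex that also holds KDM6A.

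RNA libraries held 16587860 to 36589089 reads on genes, and a floor of 3 reads corresponded to 0.0528 to 0.120 RPM (reads per M reads of the library). EZH2 itself, the targeted gene, was measured at 59.5 to 68.6 RPM in EZH2+/+ and 45.7 to 55.4 RPM in EZH2-/+ ESCs. It was at 8.65 to 11.5 RPM in EZH2-/- ESCs and at 256 to 385 RPM with the transgene induced. The 7 pluripotency markers examined summed to 2092 to 2707 RPM in EZH2+/+ and to 2875 to 3576 RPM in the other genotypes, each with a mean above 1 RPM in every genotype. Single markers went both ways. From EZH2+/+ to EZH2-/- ESCs the mean of SOX2 went from 224 to 109 RPM and that of LIN28A from 981 to 885 RPM. POU5F1, NANOG, DNMT3B, TDGF1 and ZFP42 had higher means in EZH2-/- ESCs. Markers of differentiated cells moved with genotype: the 4 endoderm genes summed to 67.4 to 132 RPM in EZH2-/- against 12.8 to 25.4 RPM in EZH2+/+ ESCs, and the 4 mesoderm genes to 81.5 to 154 RPM against 9.46 to 27.5 RPM. The 3 neural genes summed to 0.528 to 1.78 RPM in EZH2-/- against 6.88 to 18.0 RPM in EZH2+/+ ESCs, and 3 mesenchyme genes to 32.9 to 217 RPM against 53.5 to 114 RPM. Within the mesenchyme sum COL1A1 had a mean of 65.2 RPM in EZH2-/- against 88.3 RPM in EZH2+/+ ESCs. COL3A1 and TWIST1 went the other way, with 53.8 against 2.10 RPM and 7.30 against 0.233 RPM. In EZH2-/- +EZH2 ESCs the endoderm genes summed to 12.9 to 30.5 RPM, the mesoderm genes to 12.4 to 72.5 RPM, the mesenchyme genes to 20.5 to 61.5 RPM and the neural genes to 0.509 to 0.640 RPM. In EZH2-/+ ESCs these sums were 7.01 to 71.2, 2.49 to 41.0, 21.9 to 66.3 and 0.994 to 3.84 RPM. The part of the other cells in the results below was not tested.

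The start regions of these genes are shown first, because the chromatin data were collected at them. RefSeq (GRCh38.p14) lists 10 starts for the 8 genes, and the 250 bases before each start were examined. The count of the dinucleotide CG, the site of DNA methylation, ranged from 1 to 48, beside a median of 11 over 35116 RefSeq start regions of the same length. The lowest and highest counts belonged to the downstream start of KDM6B and to KMT2C. The 5 regions below are KDM6A, which differed most between genotypes, both starts of KDM6B, KMT2A, with the most H3K4me3, and KMT2C, with the most H3K27me3. CG dinucleotides are in capitals and each sequence is written 5′ to 3′ in the direction of the gene.
KDM6A, chrX:44872938-44873187, + strand: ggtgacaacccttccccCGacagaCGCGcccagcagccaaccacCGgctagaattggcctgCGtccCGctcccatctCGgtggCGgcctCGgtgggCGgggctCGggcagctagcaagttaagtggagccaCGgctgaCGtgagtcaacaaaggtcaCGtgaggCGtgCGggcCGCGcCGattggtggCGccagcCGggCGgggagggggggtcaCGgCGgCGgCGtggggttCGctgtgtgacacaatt
KDM6B, upstream start, chr17:7833967-7834216, + strand: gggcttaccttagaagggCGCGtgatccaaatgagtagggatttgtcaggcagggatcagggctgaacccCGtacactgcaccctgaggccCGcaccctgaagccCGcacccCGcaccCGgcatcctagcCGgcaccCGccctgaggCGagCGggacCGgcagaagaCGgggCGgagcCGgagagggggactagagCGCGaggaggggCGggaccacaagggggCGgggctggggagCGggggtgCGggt
KDM6B, downstream start, chr17:7839667-7839916, + strand: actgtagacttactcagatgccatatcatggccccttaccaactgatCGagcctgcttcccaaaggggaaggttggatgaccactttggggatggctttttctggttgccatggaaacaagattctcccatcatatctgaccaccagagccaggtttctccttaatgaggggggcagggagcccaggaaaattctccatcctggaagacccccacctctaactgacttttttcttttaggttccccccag
KMT2A, chr11:118436242-118436491, + strand: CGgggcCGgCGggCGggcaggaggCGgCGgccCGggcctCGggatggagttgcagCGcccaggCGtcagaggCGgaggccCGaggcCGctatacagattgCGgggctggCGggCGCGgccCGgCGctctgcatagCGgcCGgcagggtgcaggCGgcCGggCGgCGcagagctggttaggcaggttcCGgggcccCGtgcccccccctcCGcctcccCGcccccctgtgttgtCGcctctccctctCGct
KMT2C, chr7:152436004-152436253, - strand: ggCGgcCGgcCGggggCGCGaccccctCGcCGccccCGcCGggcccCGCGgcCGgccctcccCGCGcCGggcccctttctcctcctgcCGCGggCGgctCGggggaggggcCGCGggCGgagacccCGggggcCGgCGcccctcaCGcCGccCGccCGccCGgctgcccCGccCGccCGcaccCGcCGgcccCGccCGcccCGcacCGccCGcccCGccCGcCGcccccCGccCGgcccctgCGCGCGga

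KDM6A held 27 CG, a count reached by 17.7% of all start regions, and KMT2C held 48, reached by 0.262%. The upstream KDM6B start held 21 CG, and the downstream one held 1, so that 93.9% of all start regions had as many. Between these lay KMT2D with 23, CREBBP with 46 and 31 at its starts, KMT2A with 31, EP300 with 35 and KMT2B with 40. The GC box GGGCGG, searched on both strands, was present in 8 of the 10 regions and in 42.6% of all start regions, with 15 matches in KMT2C alone. The ETS core CCGGAA was present in KMT2A only among the 10 (14.5% of all start regions). These matches are descriptions of the letters in the windows and not of binding.

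Levels of different genes were compared per kilobase of transcript (RPM per kb). EP300 was the highest of the 8 in every genotype, from 10.1 ± 3.16 RPM per kb (SD, n = 3) in EZH2+/+ to 12.8 ± 4.33 in EZH2-/+ ESCs, and KMT2C was the lowest, from 1.68 to 1.82 RPM per kb. KDM6A was the third of the 8 in EZH2+/+ and EZH2-/+ ESCs, at 3.98 ± 0.854 and 5.08 ± 0.866 RPM per kb, and the second in EZH2-/- and EZH2-/- +EZH2 ESCs, at 9.73 ± 2.54 and 8.24 ± 2.65 RPM per kb. KMT2A was the sixth in EZH2+/+, with 3.78 ± 1.44 RPM per kb, and the seventh in EZH2-/- ESCs, with 2.63 ± 1.07. The spread between libraries of a genotype was wide enough that KDM6A, KMT2B, KDM6B and KMT2A, at 3.78 to 3.98 RPM per kb in EZH2+/+ ESCs, were not separated there.

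The first question was whether the opposing enzymes were expressed at another level when EZH2 was missing. KDM6A was the only 1 of the 8 genes called in EZH2-/- relative to EZH2+/+ ESCs, and it was higher. KDM6A, the X-linked H3K27 demethylase, lies on chromosome X of GRCh38 from 44873177 to 45112602 (ENSG00000147050). It was measured at 28.3, 26.1 and 18.4 RPM in libraries 1, 2 and 3 of EZH2+/+ ESCs and at 64.1, 71.8 and 42.0 RPM in those of EZH2-/- ESCs. The lowest EZH2-/- library stood above the highest EZH2+/+ library. On the log2 scale it rose by 1.28 (2.42-fold, standard error, SE, 0.27, n = 3 in each genotype, adjusted p = 0.00422 by limma). Fitting the library number as a block gave an adjusted p of 5.27e-05 by limma. This 1 call of 8 stood against 31.4% of the 20608 genes tested that were called in either direction, with 12.6% higher. No overlap between libraries, higher in EZH2-/-, was found in 20.6% of all genes.

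KDM6A was also higher when EZH2 was put back. EZH2-/- +EZH2 ESCs gave 58.6, 60.5 and 31.7 RPM, and the lowest of these lay above the highest EZH2+/+ library. Against EZH2+/+ ESCs the log2 change was 1.01 (SE 0.27, adjusted p = 0.0334 by limma and 0.000695 with the block). KDM6A was again the only 1 of 8 called, where 10.3% of all genes were called (22.4% with the block), with 3.40% higher, and 9.77% had no overlap, higher. The difference between EZH2-/- and EZH2-/- +EZH2 ESCs was 0.26 (SE 0.27, adjusted p = 0.676 by limma), which did not pass the threshold, and the libraries overlapped. None of the 8 genes was called in that comparison, where 3.15% of all genes were called, or 9.40% with the block, and none of the 8 had libraries without overlap (23.2% of all genes). At an unadjusted p under 0.05 the limma count was also 0 of 8 (16.8% of all genes), and limma-voom on the recovered reads gave 0.

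EZH2-/+ ESCs gave 29.1, 36.9 and 26.8 RPM of KDM6A, between the EZH2+/+ and EZH2-/- libraries and overlapping with the former. Against EZH2+/+ ESCs the log2 change was 0.36 (SE 0.27, adjusted p = 0.750 by limma). None of the 8 genes was called in EZH2-/+ against EZH2+/+ ESCs, by limma with or without the block or by limma-voom, beside 1.15% of all genes called, or 2.88% with the block. By limma 0 of 8 had an unadjusted p under 0.05 (10.6% of all genes) and 0 of 8 had libraries without overlap (15.1%). EZH2-/- relative to EZH2-/+ ESCs had 0.91 more KDM6A on the log2 scale (SE 0.27, adjusted p = 0.0354 by limma and 0.000599 with the block). That was 1 of 8 genes called, where 18.5% of all genes were called, with 10.3% higher, and 17.8% had no overlap, higher.

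The 3 KDM6A calls differed in how far they rested on single libraries. The call against EZH2+/+ ESCs held without any 1 of the 12 libraries, with log2 fold changes from 1.09 to 1.51 and adjusted p from 0.00135 to 0.0245 by limma. The call in EZH2-/- +EZH2 against EZH2+/+ ESCs was lost without EZH2+/+ library 1, 2 or 3 (adjusted p = 0.0626, 0.0790 and 0.113 by limma) and without EZH2-/- +EZH2 library 1 or 2 (adjusted p = 0.122 and 0.144 by limma). The call against EZH2-/+ ESCs was lost without EZH2-/+ library 1 or 3 (adjusted p = 0.0830 and 0.0970 by limma) and without EZH2-/- library 1 or 2 (adjusted p = 0.0950 and 0.145 by limma). In bulk RNA, more cells with the transcript and more transcript per cell cannot be told apart.

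KDM6A is known to escape X inactivation. X-linked genes in general were also higher in EZH2-/- and EZH2-/- +EZH2 relative to EZH2+/+ ESCs. Over the 565 X-linked genes averaging 1 RPM or more, the median log2 change was 0.72 in EZH2-/- relative to EZH2+/+ ESCs, while that of autosomal genes was -0.14. Of all 711 X-linked genes tested, 365 (51.3%) were called higher in that comparison, against 11.2% of autosomal genes. KDM6A stood 0.55 above the X-linked median, at the 80.4th percentile of X-linked genes. Relative to EZH2-/+ ESCs the X-linked median was 0.83, and KDM6A stood 0.08 above it, at the 56.8th percentile. In EZH2-/- +EZH2 relative to EZH2+/+ ESCs the X-linked median was 0.52 and KDM6A stood 0.49 above it. EZH2-/+ relative to EZH2+/+ ESCs had an X-linked median of -0.09, with KDM6A 0.45 above it, at the 92.9th percentile. For EZH2-/- relative to EZH2-/- +EZH2 ESCs the X-linked median was 0.19 and KDM6A stood 0.08 above it.

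Input chromatin, which carries no antibody selection, showed the same split. The median input over 4071 windows on chromosome X, divided by that over 149487 autosomal windows, was 0.917 in EZH2+/+ and 0.901 in EZH2-/+ ESCs, and it was 1.44 in EZH2-/- and 1.35 in EZH2-/- +EZH2 ESCs. Between EZH2-/- and EZH2+/+ ESCs the X windows differed from the autosomal ones by 0.67 on the log2 scale (1.59-fold), while single autosomes moved by between -0.09 and 0.06. The 11 KDM6A windows had a median input of 1.33, 1.55, 2.35 and 2.23 RPM, going from EZH2+/+ through EZH2-/+ and EZH2-/- to EZH2-/- +EZH2 ESCs, and the windows within 5 Mb of the gene had 1.24, 1.35, 1.97 and 1.93 RPM. Between EZH2-/+ and EZH2+/+ ESCs the X difference was 0.00. Both genotypes with high KDM6A were therefore also the ones with more X-linked input. In their comparisons with EZH2+/+ or EZH2-/+ ESCs, the EZH2 genotype and the X-linked input cannot be told apart for KDM6A. Whether that input reflects the number of X copies was not tested. Between EZH2-/- and EZH2-/- +EZH2 ESCs, which differed in EZH2 expression, the X input difference was 0.09 and that of KDM6A RNA 0.26 (SE 0.27).

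**Figure D1:**
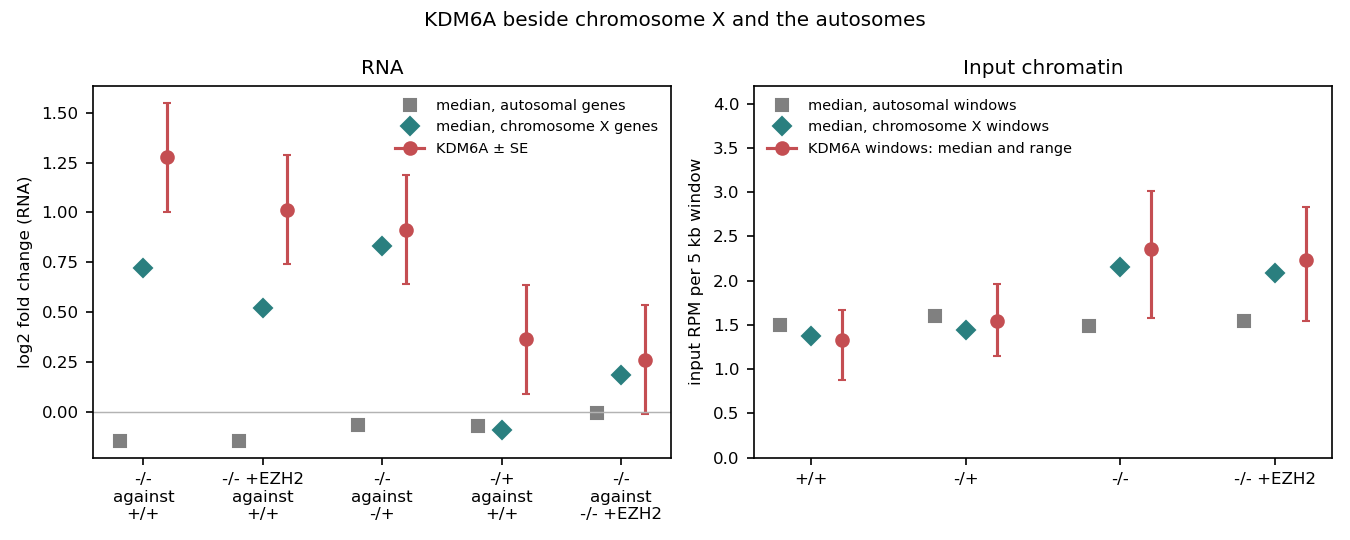
Left, log2 fold change of KDM6A (± SE) beside the medians of X-linked and autosomal genes averaging 1 RPM or more in 5 comparisons. Right, input RPM per 5 kb window (linear axis from 0) by genotype, as medians over X-linked and autosomal windows and, for the 11 KDM6A windows, as median and range. The X-linked median and KDM6A are both raised in EZH2-/- and EZH2-/- +EZH2 ESCs, and autosomal values stay near those of EZH2+/+ ESCs.

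KDM6B, the second H3K27 demethylase (ENSG00000132510, chromosome 17 from 7839904 to 7854796), gave 22.8, 31.0 and 23.1 RPM in EZH2+/+ ESCs and 23.9, 27.9 and 19.9 RPM in EZH2-/- ESCs. The 2 ranges overlapped, with a log2 change of -0.10 (SE 0.23, adjusted p = 0.773 by limma). EZH2-/+ ESCs gave 17.3, 24.0 and 33.0 RPM and EZH2-/- +EZH2 ESCs 18.9, 22.9 and 17.0 RPM, and each neighbouring pair in the order of the 4 means overlapped. The log2 fold change furthest from 0 among the 5 comparisons was -0.38, in EZH2-/- +EZH2 relative to EZH2+/+ ESCs (adjusted p = 0.330 by limma).

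The balance of the demethylases differed along with KDM6A. The ratio of KDM6A to KDM6B per kb was 1.37, 0.930 and 0.877 in the EZH2+/+ libraries and 2.96, 2.85 and 2.33 in the EZH2-/- libraries, which did not overlap. In EZH2-/- +EZH2 ESCs it was 3.43, 2.91 and 2.05, and in EZH2-/+ ESCs 1.86, 1.69 and 0.897. The geometric mean thus went from 1.04 in EZH2+/+ to 2.70 in EZH2-/- ESCs, a 2.60-fold difference. By the exact permutation test, two-sided, p = 0.1, which is the smallest that 3 libraries against 3 allow, and 0.2 after adjustment over the 20 ratio tests. For this and the later ratios, the share of all gene pairs without overlap was not computed. Lack of overlap in a ratio is therefore a description only.

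**Figure D2:**
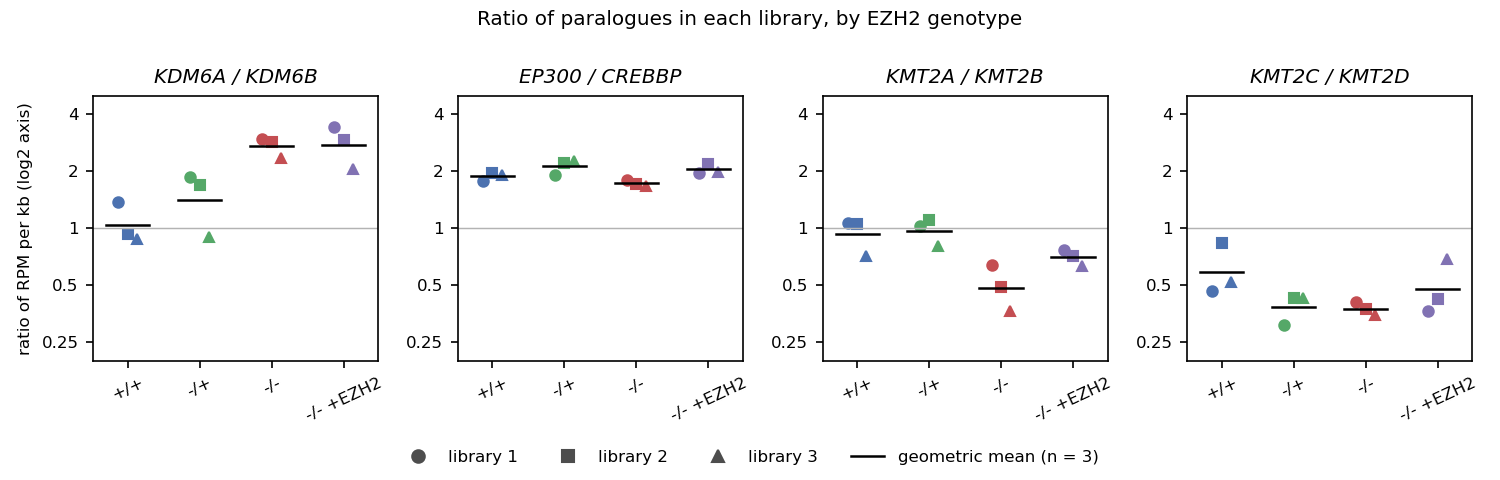
Ratio of RPM per kb between paralogues (log2 axis) in each of the 12 libraries, by EZH2 genotype. Symbols are library numbers and lines geometric means (n = 3). KDM6A over KDM6B is 2.05 or more in every EZH2-/- and EZH2-/- +EZH2 library, KMT2A over KMT2B is at most 0.637 in EZH2-/- ESCs, and EP300 over CREBBP stays between 1.67 and 2.26 in all 12.

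The acetyltransferases EP300 (ENSG00000100393, chromosome 22 from 41091786 to 41180077) and CREBBP (ENSG00000005339, chromosome 16 from 3725054 to 3880726) did not pass the threshold in any comparison. EP300 gave 118, 83.2 and 63.3 RPM in EZH2+/+ and 133, 112 and 65.2 RPM in EZH2-/- ESCs, a log2 change of 0.21 (SE 0.41, adjusted p = 0.720 by limma). CREBBP gave 82.1, 52.2 and 41.0 RPM in EZH2+/+ and 90.8, 80.9 and 48.1 RPM in EZH2-/- ESCs, a log2 change of 0.34 (SE 0.42, adjusted p = 0.572 by limma). In both genes the libraries of the genotypes overlapped throughout. In EZH2-/+ and EZH2-/- +EZH2 ESCs EP300 ranged from 72.2 to 148 and from 45.7 to 141 RPM, and CREBBP from 39.3 to 95.3 and from 28.4 to 88.2 RPM. The ratio of EP300 to CREBBP per kb was steadier than either gene, at 1.77 to 1.96 in EZH2+/+ and 1.90 to 2.26 in EZH2-/+ ESCs. It was 1.67 to 1.80 in EZH2-/- ESCs and 1.96 to 2.19 when EZH2 was restored. The EZH2-/- libraries lay below those of EZH2-/- +EZH2 ESCs (0.844-fold, exact permutation p = 0.1, two-sided, adjusted 0.2). They also lay below those of EZH2-/+ ESCs (0.813-fold), and the EZH2-/- +EZH2 libraries lay above those of EZH2+/+ ESCs (1.09-fold). Both had the same exact permutation p and adjusted value.

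The promoter methyltransferases KMT2A (ENSG00000118058, chromosome 11 from 118436490 to 118526832) and KMT2B (ENSG00000272333, chromosome 19 from 35718019 to 35738878) had log2 changes of opposite sign in EZH2-/- relative to EZH2+/+ ESCs. Neither was called by limma without the block. KMT2A gave 86.6, 62.6 and 38.8 RPM in EZH2+/+ and 61.1, 44.3 and 25.5 RPM in EZH2-/- ESCs. Each EZH2-/- library was below the EZH2+/+ library of the same number, although the ranges overlapped. The log2 change was -0.54 with a SE of 0.43 (adjusted p = 0.367 by limma), and with the block the SE was 0.10 and the adjusted p 0.00172. Relative to EZH2-/+ ESCs, which gave 95.2, 82.8 and 44.0 RPM, the change was -0.78 (adjusted p = 0.233 by limma and 0.000320 with the block, lower in 3 of 3 pairs of the same number).

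KMT2A in EZH2-/- +EZH2 ESCs, at 74.7, 60.3 and 27.8 RPM, lay between EZH2-/- and EZH2+/+ ESCs in each number, and neither difference passed the threshold (adjusted p with the block 0.107 for both). KMT2B had 41.6, 30.5 and 27.9 RPM in EZH2+/+ and 49.0, 46.1 and 35.5 RPM in EZH2-/- ESCs. Its change was 0.39 (SE 0.28, adjusted p = 0.316 by limma and 0.0436 with the block). The block thus gave 3 calls among the 8 genes in EZH2-/- against EZH2+/+ ESCs, 2 higher and 1 lower, beside 45.3% of all genes, and 2 calls against EZH2-/+ ESCs, beside 32.5%. Without the block, the count was 1 in both.

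The ratio of KMT2A to KMT2B per kb was 1.06, 1.05 and 0.710 in EZH2+/+ and 0.637, 0.491 and 0.366 in EZH2-/- ESCs. Its geometric mean was 0.926 in EZH2+/+ and 0.969 in EZH2-/+ ESCs, while EZH2-/- ESCs had 0.486 and EZH2-/- +EZH2 ESCs 0.701. The difference between EZH2-/- and EZH2+/+ ESCs was 0.525-fold (exact permutation p = 0.1, two-sided, adjusted 0.2).

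The enhancer methyltransferases KMT2C (ENSG00000055609, chromosome 7 from 152134922 to 152436005) and KMT2D (ENSG00000167548, chromosome 12 from 49018975 to 49059774) had SE of 0.42 and 0.54, the latter the widest of the 8, and neither passed the threshold in any comparison, with or without the block. KMT2C gave 41.0, 32.7 and 18.3 RPM in EZH2+/+ and 40.8, 32.0 and 15.8 RPM in EZH2-/- ESCs, a log2 change of -0.08 (SE 0.42, and 0.10 with the block). KMT2D gave 107, 47.7 and 43.0 RPM in EZH2+/+ and 123, 105 and 55.7 RPM in EZH2-/- ESCs, a log2 change of 0.57 (SE 0.54, adjusted p = 0.454 by limma and 0.0586 with the block). KMT2C has near-identical copies elsewhere in the genome, and KMT2D overlaps PRKAG1 (26.0 RPM on average) in a count made without strand, so both levels are uncertain to that extent. The ratio of KMT2C to KMT2D per kb was 0.467, 0.840 and 0.522 in EZH2+/+ against 0.407, 0.374 and 0.347 in EZH2-/- ESCs (0.637-fold, exact permutation p = 0.1, two-sided, adjusted 0.2). EZH2-/+ ESCs, at 0.310, 0.429 and 0.427, were also below EZH2+/+ ESCs (0.653-fold, exact permutation p = 0.1, two-sided, adjusted 0.2), and EZH2-/- relative to EZH2-/+ ESCs was at 0.976-fold.

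As a group, the 8 genes had a median log2 fold change of 0.27 in EZH2-/- relative to EZH2+/+ ESCs, beside -0.13 over all genes tested. In EZH2-/- +EZH2 relative to EZH2+/+ ESCs the median was -0.02 beside -0.15, and for EZH2-/+ against EZH2+/+ ESCs 0.21 beside -0.09. Relative to EZH2-/- +EZH2 ESCs, EZH2-/- ESCs had a median of 0.25 beside 0.02, and relative to EZH2-/+ ESCs one of 0.02 beside -0.03. These comparisons share libraries with each other. Rescaling the libraries by their median ratio moved the median of all genes to -0.01 in EZH2-/- against EZH2+/+ ESCs and changed the calls there from 2593 higher and 3870 lower to 3378 higher and 2822 lower, with KDM6A then at 1.40.

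Much of the variation of these genes lay between libraries of the same genotype. Library 3 was the lowest of its genotype in 4 of 4 genotypes for 7 of the 8 genes, and in 2 of 4 for KDM6B. Its deviation from the genotype mean of log2 values reached -1.28 for KMT2D. The transcripts are long, 6094 to 20635 bases, and in the number 3 libraries the 1251 genes with transcripts of at least 8000 bases had a median deviation of -0.32 to -0.24, whereas short transcripts stood at 0.05 to 0.22. The part of transcript length in these values was not tested beyond the corrected fits given in the closing section.

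The 6 genes other than KDM6A and KDM6B varied together over the 12 libraries, with Pearson correlations of log2(RPM + 0.1) between 0.634 and 0.974 in 15 pairs. KDM6B had correlations of -0.128 to 0.065 with the rest, and KDM6A had 0.062 with KMT2A and up to 0.679 with KMT2B. The gene most like KDM6A among 15491 searched was SPIN3, also on chromosome X (r = 0.967). TRRAP was most like EP300 (r = 0.985), SRCAP most like CREBBP (r = 0.985), DYNC1H1 most like KMT2A (r = 0.987) and HCFC1 most like KMT2B (r = 0.986). RIF1 was most like KMT2C (r = 0.980), SIPA1L3 most like KMT2D (r = 0.985) and NEK7 most like KDM6B (r = 0.930). All values describe 12 libraries that share genotype, number and depth, and most of these partners also have long transcripts.

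The partners and counterparts of these enzymes were examined in 9 lists with 46 genes. In EZH2-/- relative to EZH2+/+ ESCs 2 of the 46 rose and 7 fell by limma, 19.6% in all where 31.4% of all genes were called, and the block gave 6 higher and 15 lower, 45.7% where 45.3% of all genes were called. H3K4 demethylases erase the mark that the KMT2 enzymes write. Among the 6 genes listed here under that name, KDM1B fell by 1.00 (adjusted p = 0.00278 by limma), KDM5B fell by 0.75 (adjusted p = 0.0134 by limma) and KDM1A fell by 0.37 (adjusted p = 0.0388 by limma). KDM5C, the X-linked H3K4 demethylase, rose from 99.5, 93.3 and 78.9 RPM to 172, 167 and 144 RPM (log2 fold change 0.83, adjusted p = 0.0127 by limma), beside the median of 0.72 given above for X-linked genes. KDM2B and KDM5A did not pass the threshold without the block. With the block, 4 of the 6 genes were called lower and 1 higher.

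SMARCA2, an ATPase of the BAF remodelling complex, moved most of the 46. It rose from 5.97, 6.52 and 7.28 RPM in EZH2+/+ to 45.7, 38.9 and 33.1 RPM in EZH2-/- ESCs, with EZH2-/+ at 8.40, 5.92 and 7.83 RPM and EZH2-/- +EZH2 ESCs at 28.8, 22.5 and 22.3 RPM, so that the EZH2+/+ and EZH2-/+ libraries stood apart from the rest. The log2 change was 2.55 (SE 0.18, adjusted p = 6.18e-06 by limma). The remaining 5 BAF subunits did not pass the threshold without the block. With the block, 3 of the 6 BAF subunits were called lower and 1 higher in EZH2-/- relative to EZH2+/+ ESCs. Of the 6 H3K36 and H3K79 methyltransferases, NSD2 fell by 0.81 and NSD3 fell by 0.68 (adjusted p = 0.00492 and 0.0157 by limma).

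PSIP1, the chromatin tether of KMT2A, fell by 0.43 (adjusted p = 0.0369 by limma), and KAT8, of the 7 other lysine acetyltransferases, fell by 0.50 (adjusted p = 0.0229 by limma). No gene of the COMPASS core shared by all KMT2 enzymes (4 genes), of the KMT2C and KMT2D partners (3 genes), of the SETD1 complex (5 genes) or of the deacetylases and corepressors (5 genes) was called by limma in any comparison. Within these lists, the block called ASH2L, SETD1B and HDAC1 higher and NCOA6 and NCOR1 lower in EZH2-/- against EZH2+/+ ESCs.

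In EZH2-/- relative to EZH2-/+ ESCs 2 of the 46 rose (KDM5C and SMARCA2) and 4 fell (PSIP1, KDM1B, KDM5B and NSD2), 6 of the 46 where 18.5% of all genes were called. In EZH2-/- +EZH2 relative to EZH2+/+ ESCs SMARCA2 alone of the 46 was called, 2.17% where 10.3% of all genes were, at 1.88 (adjusted p = 0.000159 by limma). The block gave 14 calls (30.4%, beside 32.5% of all genes) and 11 calls (23.9%, beside 22.4%). Between EZH2-/- and EZH2-/- +EZH2 ESCs limma called 0 of 46, with 3 at an unadjusted p under 0.05, and the block called 4 (8.70%, beside 9.40% of all genes), namely SMARCA2 higher at 0.67 and PSIP1, KDM1B and NSD2 lower. In EZH2-/+ relative to EZH2+/+ ESCs it called 0 of 46, with 1 at an unadjusted p under 0.05, and 0 with the block.

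The second question was what the promoters of these genes carried. Windows of 5 kb centred on start sites were available, and for each gene the one with the most H3K4me3 in EZH2+/+ ESCs was described. The labels list 2 replicates for each histone mark and input, the table gives 1 averaged value for each genotype, and the study describes more replicates than the labels list, so errors given here cover counting only and no test between genotypes was possible. The depth of a histone library was 3.43 M reads for H3K4me3 in EZH2+/+ ESCs and 8.71 to 20.8 M reads in the other histone columns. For 7 of the 8 genes the window described held a RefSeq start. The KDM6B window (chromosome 17 from 7841707 to 7846707) held neither RefSeq start. The downstream start lay in a neighbouring window, whose values are given where they differ, and the upstream start, 5687 bases from the nearest window centre, lay in none.

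In EZH2+/+ ESCs all 8 promoters carried H3K4me3, from 9.18 RPM at CREBBP to 25.8 RPM at KMT2A, beside a median of 4.95 RPM over 35684 gene names. KMT2A stood at the 99.8th percentile and KMT2D, with 19.9 RPM, at the 98.4th. H3K4me3 exceeded input 8.46-fold to 35.8-fold. H3K27ac lay between 1.66 RPM at KDM6A and 3.24 RPM at EP300 (median of all names 2.07 RPM), and H3K4me1 between 1.03 RPM at KDM6A and 4.27 RPM at KMT2A (median 2.75 RPM). In the 6 genes with windows 10 kb or more from the main one, none of those windows exceeded 4.14 RPM of H3K4me3.

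H3K27me3 at the 8 promoters was 1.67 to 3.36 RPM, around the median of 1.83 RPM over all names, and 1.54-fold to 2.77-fold of input. None of the 64 windows met the rule applied here for an H3K27me3-marked promoter (over 5.36 RPM at this window length, with low input). The nearest was a KMT2C window with 3.45 RPM. Of all gene names, 17.5% met the rule in at least 1 window. The rule was adapted from the one in the study's methods, and the set passing it here is larger than the set the study reports. It therefore does not reproduce that set. EZH2 binding was 0.483 RPM at KDM6A to 1.15 RPM at EP300, above the median of 0.322 RPM over all names in all 8 genes and at percentiles from 66.2 to 92.9. It was 0.474-fold to 1.29-fold of input. The study describes crosslinked chromatin for EZH2 and takes input in its native protocol for histone marks, so this ratio compares unlike preparations.

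**Figure D3:**
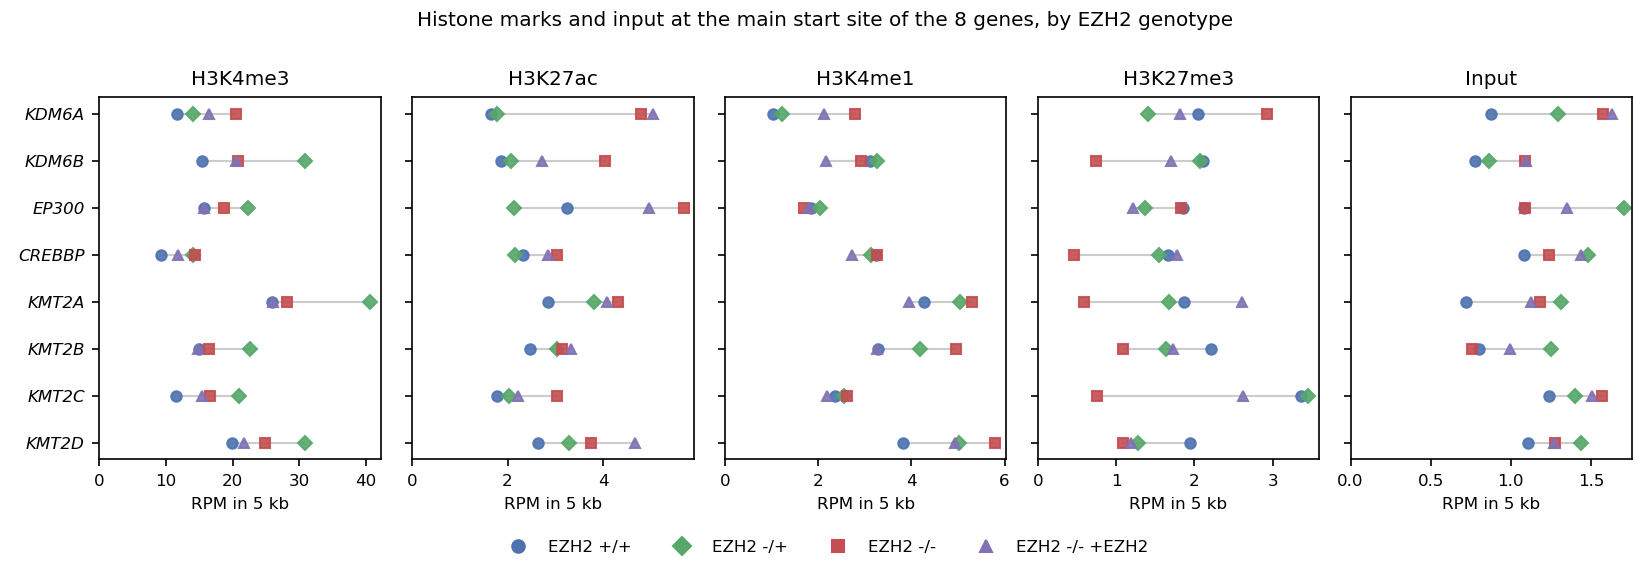
RPM in the main 5 kb start site window of the 8 genes for 4 histone marks and input (linear axes from 0, a different scale in each panel), with 1 symbol per EZH2 genotype, each an averaged value. H3K27me3 in EZH2-/- ESCs is the lowest of the 4 genotypes at 6 of the 8 genes and the highest at KDM6A, and KDM6A has the largest separation in H3K27ac relative to its EZH2+/+ level.

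In EZH2-/- relative to EZH2+/+ ESCs the median log2 change of H3K27me3 over the 8 promoters was -1.18, beside -0.85 over all gene names. The 17272 autosomal promoters with at least 5 RPM of H3K4me3, a closer comparison, had a median of -1.35. H3K27me3 was lower by at least 1 at 4 of the 8, KMT2C, CREBBP, KMT2A and KDM6B, as at 45.2% of all names. KMT2C went from 3.36 to 0.759 RPM, a change of -2.01 (95% counting interval -2.72 to -1.29), and CREBBP from 1.67 to 0.458 RPM. KDM6A was the exception, at 2.05 RPM in EZH2+/+ ESCs against 2.93 RPM without EZH2 (0.50, interval -0.06 to 1.06), and EP300 was at 1.86 and 1.83 RPM. The KDM6A window had an input of 0.877 RPM in EZH2+/+ ESCs, against 1.58 RPM without EZH2, and the change of H3K27me3 minus that of input was -0.28. At the 494 X-linked promoters with at least 5 RPM of H3K4me3 the median H3K27me3 change was -0.04, against the -1.35 at autosomal ones.

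With EZH2 restored, H3K27me3 stood at 2.62 RPM at KMT2C, 2.61 RPM at KMT2A, 1.78 RPM at CREBBP and 1.70 RPM at KDM6B. The EZH2+/+ levels of these genes were 3.36, 1.86, 1.67 and 2.11 RPM. The median change of EZH2-/- relative to EZH2-/- +EZH2 ESCs was -0.86, beside -0.55 over all names and -0.999 at the autosomal H3K4me3 promoters. The same 4 genes were lower by at least 1, as were 36.1% of all names. KMT2D was at 1.08 and 1.19 RPM in the pair. The RNA of the 4 genes lower in H3K27me3 did not pass the threshold in that comparison.

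H3K4me3 was higher in EZH2-/- than in EZH2+/+ ESCs at 8 of 8 promoters, and by at least 1 at 0 of 8 (2.40% of all names). The share of all names higher by any amount was not computed, here or for EZH2-/+ ESCs below, so these counts are descriptions only. The median change of the 8 was 0.38, beside -0.13 over all names. Without KDM6A it was 0.32, beside 0.12 at the 17272 autosomal promoters with at least 5 RPM of H3K4me3. After subtraction of the input change the median of the 8 was 0.17, with KDM6B at -0.01 and KMT2A at -0.52. The KDM6B window that held the downstream start had 13.8 RPM in EZH2+/+ against 13.9 RPM in EZH2-/- ESCs. H3K4me3 was also higher in EZH2-/+ than in EZH2+/+ ESCs at 8 of 8, with a median of 0.62 beside 0.50 at those autosomal promoters. Input was higher too at the same 8 windows, with a median of 0.47. After subtraction of input the H3K4me3 median was 0.10, with KDM6A at -0.24, EP300 at -0.12 and KMT2A at -0.13. Both comparisons share the shallow EZH2+/+ column. KMT2A had 25.8, 40.7, 28.2 and 26.1 RPM in the genotype order used above for input, and KDM6B had 15.4, 30.9, 20.8 and 20.5 RPM. KDM6A had 11.6, 14.0, 20.5 and 16.5 RPM, and its change of 0.82 from EZH2+/+ to EZH2-/- ESCs (interval 0.47 to 1.16) became 0.04 after subtraction of the input change, beside a median of 0.84 at X-linked H3K4me3 promoters before subtraction. Between EZH2-/- and EZH2-/- +EZH2 ESCs all 8 changes lay between 0.03 and 0.31.

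H3K27ac was higher by at least 1 in EZH2-/- relative to EZH2+/+ ESCs at 2 of 8 promoters, KDM6A and KDM6B, as at 9.35% of all names. KDM6A had 1.66, 1.77, 4.80 and 5.04 RPM in the same genotype order, a change of 1.48 (interval 0.93 to 2.02) that was 0.70 after subtraction of input, beside a median of 1.32 at the X-linked and 0.54 at the autosomal H3K4me3 promoters. KDM6B had 1.85, 2.07, 4.03 and 2.72 RPM, a change of 1.08 (interval 0.54 to 1.62) that was 0.64 after subtraction of input. In the window with the downstream KDM6B start it was 1.66 RPM in EZH2+/+ and 4.08 RPM without EZH2. Input in that downstream window went from 1.24 to 1.16 RPM. The RNA of KDM6B in the same genotypes differed by -0.10. Over all 8 the median H3K27ac change was 0.66, beside 0.34 over all names, and 0.41 after subtraction of input. Without KDM6A and before subtraction it was 0.58, beside the 0.54 at the autosomal H3K4me3 promoters.

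H3K4me1 differed by at least 1 at KDM6A only, from 1.03 to 2.80 RPM (1.36, interval 0.68 to 2.03, and 0.58 minus input), where 2.30% of all names were as much higher. X-linked H3K4me3 promoters had a median H3K4me1 change of 1.04. The 7 autosomal genes lay between -0.11 and 0.59, with KMT2D and KMT2B at the upper end. Between EZH2-/- and EZH2-/- +EZH2 ESCs no promoter of the 8 differed by 1 in H3K4me3, H3K27ac or H3K4me1, where 0.645%, 3.61% and 0.269% of all names were higher by that much and 0.855%, 1.87% and 1.02% lower.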

How the data were processed

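Both deposited tables were used, 1 of RNA and 1 of ChIP. Per the labels and methods, the authors trimmed reads with Trim Galore 0.4.0, aligned them to GRCh38 with TopHat2 2.0.12 (RNA) or Bowtie2 2.2.5 (ChIP), and counted them in SeqMonk per gene without strand, or in start site windows reaching 2.5 kb to each side. The values the authors deposited are log2 RPM and were returned to RPM here. A gene without reads holds 0.9 of 1 read. Below 1000 reads, 100% of RNA values were whole multiples of 1 read (tolerance 0.02), so depths could be recovered. The labels list 2 libraries for each histone and input column, and low values lie on the steps of a mean of 2 on the log2 scale, whereas the study describes more replicates. Counting intervals assume 2. The EZH2 column is 1 library.

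RNA was tested with limma 3.58.1 in R 4.3.3 (eBayes with trend) on log2(RPM + 0.1) over the 20608 genes averaging 0.1 RPM or more across the 12 libraries, with Benjamini-Hochberg adjustment and calls under 0.05. Fold changes on this scale understate low genes. The study calls the RNA libraries biological replicates of each line. Neither it nor the labels say whether they came from separate cultures, so p-values measure only the spread between these libraries. Genotypes share library numbers 1 to 3. Residuals of same-numbered libraries correlated in all 18 pairs (0.107 to 0.560), so the number was also fitted as a block. The other 36 pairs had -0.489 to 0.245, with a mean of -0.159. Residuals were centred within each genotype, so these other pairs are not an independent contrast. limma was tested on simulated data. The members and the gene lists were chosen with earlier results of these data known. Named genes are the 8 members, EZH2, the list genes called in at least 1 of the comparisons without the block, and the gene most correlated with each member. List genes called only with the block were named after their values were seen. Transcript lengths are from GENCODE release 44. Chromatin changes used log2(RPM + 0.1) and had no test. Counting intervals (95%) cover counting error only. Raw counts, as in the DESeq2 tests of the authors, were not used here.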

Additional observations from a re-analysis of the deposited data

How the results depend on the processing

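KDM6A in EZH2-/- against EZH2+/+ ESCs kept its direction and call under all 25 alternatives, with log2 fold changes from 1.09 to 1.51. With the replicate block the members called numbered 3 there and 2 against EZH2-/+ ESCs, and with block and median ratio scaling 5 (KDM6A, KMT2A, KMT2B, CREBBP and KMT2D) and 2, where 44.5% and 32.5% of all genes were called. A length correction, chosen after seeing the data, gave 2 (KDM6A and KMT2B) in EZH2-/- against EZH2+/+ ESCs (33.1% of all genes), and together with the block 6 there (44.8%), 2 against EZH2-/+ ESCs (32.7%) and 1 (KMT2A, lower, at -0.33) against EZH2-/- +EZH2 ESCs (10.3%). The block changed no other call of a member. KDM6A alone was lost, leaving 0 called, in EZH2-/- +EZH2 against EZH2+/+ ESCs with no filter, with only the 2 genotypes compared, without the trend and by limma-voom, and against EZH2-/+ ESCs with no filter and without the trend. Without number 3 libraries KMT2A joined KDM6A against EZH2-/+ ESCs, making 2 (20.6% of all genes). Leaving out 1 library at a time gave 0 to 1 calls in both comparisons and 1 in EZH2-/- against EZH2+/+ ESCs. Averaged over all windows of a gene, most of them away from the start, the median H3K4me3 change in EZH2-/- against EZH2+/+ ESCs turned to -0.44, H3K27ac moved to 0.020 and H3K27me3 to -0.46, and the cause was not tested. H3K27me3 in that comparison was -0.73 with a pseudocount of 1 RPM and -0.48 after subtracting the median of all windows. Subtracting the input change turned H3K4me1 there from 0.22 to -0.14, moved H3K4me3 in EZH2-/+ against EZH2+/+ ESCs from 0.62 to 0.10 and turned H3K27ac from 0.17 to -0.34, and in EZH2-/- +EZH2 against EZH2+/+ ESCs turned H3K4me3 from 0.24 to -0.17. H3K27me3 windows held at most 40.9 reads per library, which limits how small a change can be seen.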
